A study of Mus musculus with 14 samples.

Results

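The mouse cytochrome P450 genes of families 1, 2 and 3 encode the liver's main drug-metabolising enzymes, and 57 of them were followed here among 22180 genes measured in liver. Genes were taken by name: a single annotated symbol starting with Cyp1, Cyp2 or Cyp3, then one letter and a number, with pseudogene symbols ending in -ps left out. This rule uses no measured value, but the P450 families were chosen with earlier results of these data known. A gene with several probe sets was represented by the one whose mean over all 14 arrays was highest. The family counts were 3 genes in Cyp1, 47 in Cyp2 and 7 in Cyp3, and the largest subfamilies were Cyp2c with 14, Cyp2d with 9, and Cyp2j and Cyp3a with 7 each. One of the 57, Cyp2d13, is listed by RefSeq as a transcribed pseudogene and the other 56 as protein coding.

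All livers came from male C57Bl/6J mice made obese by a diet with 60% fat, given freely from 6 weeks of age for 4 weeks. Canagliflozin livers (n = 5 arrays) came from mice that stayed on this diet for 4 more weeks with the drug, at 30 mg/kg in the sample labels and 25 to 30 mg/kg in the treatment protocol. Caloric restriction livers (n = 5) came from mice whose intake of the same diet was cut by 15 to 30%, to bring their body weight to that of the drug arm. HFD control livers (n = 4) came from mice that simply stayed on the high-fat diet (HFD) for the same 4 weeks. No lean group was analysed here. Canagliflozin blocks SGLT2, the kidney transporter that takes filtered glucose back into the blood. The labels do not state array by array that each is a separate mouse, so p-values measure the spread between these arrays, which may be technical in part.

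P450 enzymes are heme proteins of the endoplasmic reticulum that take electrons from NADPH through a reductase and insert an oxygen atom into drugs, pollutants, steroids, fatty acids and bile acids. In liver, foreign compounds raise their transcription through the aryl hydrocarbon receptor (AhR, acting on Cyp1 genes), the constitutive androstane receptor (CAR, acting on Cyp2b and some Cyp2c genes) and the pregnane X receptor (PXR, acting on Cyp3a genes). Several mouse members are also sex-biased, under the pituitary rhythm of growth hormone, and many are expressed most in the hepatocytes around the central vein.

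Values are log2 intensities from RMA, which sets all arrays to the same distribution, so a difference of group means is a log2 fold change relative to the bulk of transcripts. In this whole-tissue RNA, fewer cells of a type and less RNA per cell cannot be told apart. Array medians lay between 4.07 and 4.13, and any 2 arrays correlated at 0.985 to 0.992 over probe sets with 1 symbol. The mean of 11 hepatocyte markers, such as albumin, was 12.63 to 12.73 in canagliflozin livers, 12.64 to 12.71 in caloric restriction livers and 12.62 to 12.69 in HFD control livers. Markers of bile duct cells and kidney tubule averaged 3.61 to 4.09 in every array, at or below the highest array median. Other lists reached somewhat above it: lymphocytes (3.82 to 4.19), pancreatic acinar cells (3.95 to 4.34), adipocytes (3.74 to 4.38) and intestinal epithelium (4.45 to 4.74). Kupffer cell markers overlapped between canagliflozin, caloric restriction and HFD control livers, at 6.82 to 7.31, 6.37 to 7.15 and 6.47 to 7.35, but varied more between arrays than the hepatocyte markers did. Canagliflozin replicate 3 resembled arrays of other groups (mean r = 0.989) slightly more than those of its own (0.987), as did replicates 1 and 2 by smaller margins. Without replicate 3, 12 of all genes passed the test against HFD control and 16 against caloric restriction, and still none of the 57.

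The 250 bases before the start site are shown for 4 genes, because these genes carry the results below. Cyp2c55 and Cyp2c70 had the lowest log2 fold changes between canagliflozin and caloric restriction, and Cyp2b9 and Cyp2b10 had the highest values in the same arrays. Sequences are from RefSeq on GRCm38.p6, written 5′ to 3′ on the gene's strand, at chr19:39006769-39007018 (+) for Cyp2c55, chr19:40187287-40187536 (-) for Cyp2c70, chr7:26173159-26173408 (+) for Cyp2b9 and chr7:25897408-25897657 (+) for Cyp2b10. Capitals mark matches, on either strand, to 6 motifs.
Cyp2c55: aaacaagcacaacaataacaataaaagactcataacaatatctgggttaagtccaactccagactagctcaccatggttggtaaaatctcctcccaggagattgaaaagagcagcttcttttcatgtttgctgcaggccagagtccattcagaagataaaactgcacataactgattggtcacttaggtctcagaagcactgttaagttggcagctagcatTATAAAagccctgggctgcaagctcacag
Cyp2c70: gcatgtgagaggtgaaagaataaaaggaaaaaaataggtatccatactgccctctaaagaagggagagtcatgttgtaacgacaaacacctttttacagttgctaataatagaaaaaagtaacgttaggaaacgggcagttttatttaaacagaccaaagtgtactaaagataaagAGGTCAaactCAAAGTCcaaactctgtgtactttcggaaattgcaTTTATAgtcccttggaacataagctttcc
Cyp2b9: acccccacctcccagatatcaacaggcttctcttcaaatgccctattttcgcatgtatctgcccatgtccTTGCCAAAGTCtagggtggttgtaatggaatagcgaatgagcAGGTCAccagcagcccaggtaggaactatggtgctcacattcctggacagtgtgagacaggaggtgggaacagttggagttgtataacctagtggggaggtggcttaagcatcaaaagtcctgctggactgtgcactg
Cyp2b10: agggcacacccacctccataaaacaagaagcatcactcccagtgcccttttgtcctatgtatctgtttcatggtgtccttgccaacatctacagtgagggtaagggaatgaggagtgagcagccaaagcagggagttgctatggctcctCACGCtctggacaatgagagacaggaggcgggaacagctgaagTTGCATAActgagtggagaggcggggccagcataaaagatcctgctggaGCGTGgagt

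The motifs searched were GCGTG (the core of the AhR site), AGGTCA (the nuclear receptor half-site used by CAR, PXR and HNF4), CAAAGTC (an HNF4 core), TTGCNNAA (a C/EBP core), TGTTTAC (a FOXA core) and TATAAA (the TATA box). Both strands were read in windows from 250 bases before to 50 bases after each start site. Windows existed for 49 of the 57 genes, 52 windows in all, and for 32851 starts of all genes. The genes with no window were Cyp2c23, Cyp2c54, Cyp2d12, Cyp2d13, Cyp2d22, Cyp2d34, Cyp2g1 and Cyp2u1. CAAAGTC stood in 30.8% of P450 windows and in 4.44% of all windows. TATAAA stood in 48.1% of P450 windows and in 13.6% of all windows. AGGTCA, TTGCNNAA and TGTTTAC stood in 36.5%, 26.9% and 13.5% of P450 windows, against 16.3%, 10.8% and 3.65% of all windows. GCGTG was less frequent, in 19.2% of P450 windows against 32.4% of all windows, and Cyp1a1 and Cyp1b1 were among the P450 genes that held it. A match describes these letters only, and neighbouring P450 genes share sequence.

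In the printed stretches, Cyp2c55 held only a TATA box, 29 bases before its start. Cyp2c70 held a nuclear receptor half-site at -74 and an HNF4 core at -64, with a TATA box on the reverse strand at -29. Cyp2b9 held a C/EBP core at -180, which overlaps an HNF4 core at -176, and a nuclear receptor half-site at -138. Cyp2b10 held none of these in the same places. It carried AhR cores at -9 and, on the reverse strand, at -101, and a C/EBP core at -58. Aligned end to end, the Cyp2b9 and Cyp2b10 windows were identical in 72.9% of columns, and the Cyp2c55 and Cyp2c70 windows in 53.0%.

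Of the 57 genes, 27 had a mean log2 value of at least 6 and 15 a mean of at least 10, while 23 had a mean below the highest array median of 4.13, where an array says little about level. P450 genes differed more between arrays of a group than most genes did. Their within-group SD had a median of 0.28 on the log2 scale, against 0.18 over all genes. Among genes with a mean of at least 6 the medians were 0.26 and 0.16. The steadiest of those named were Cyp2d26 (0.06), Cyp2e1 (0.07), Cyp2j5 (0.09) and Cyp2a12 (0.09), and the least steady were Cyp2b9 (1.48), Cyp2c38 (1.07), Cyp2b10 (0.81) and Cyp3a25 (0.63). The median 95% confidence interval of a P450 log2 fold change reached 0.34 on each side in the comparisons with HFD control and 0.32 in the comparison of canagliflozin with caloric restriction.

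**Figure D1:**
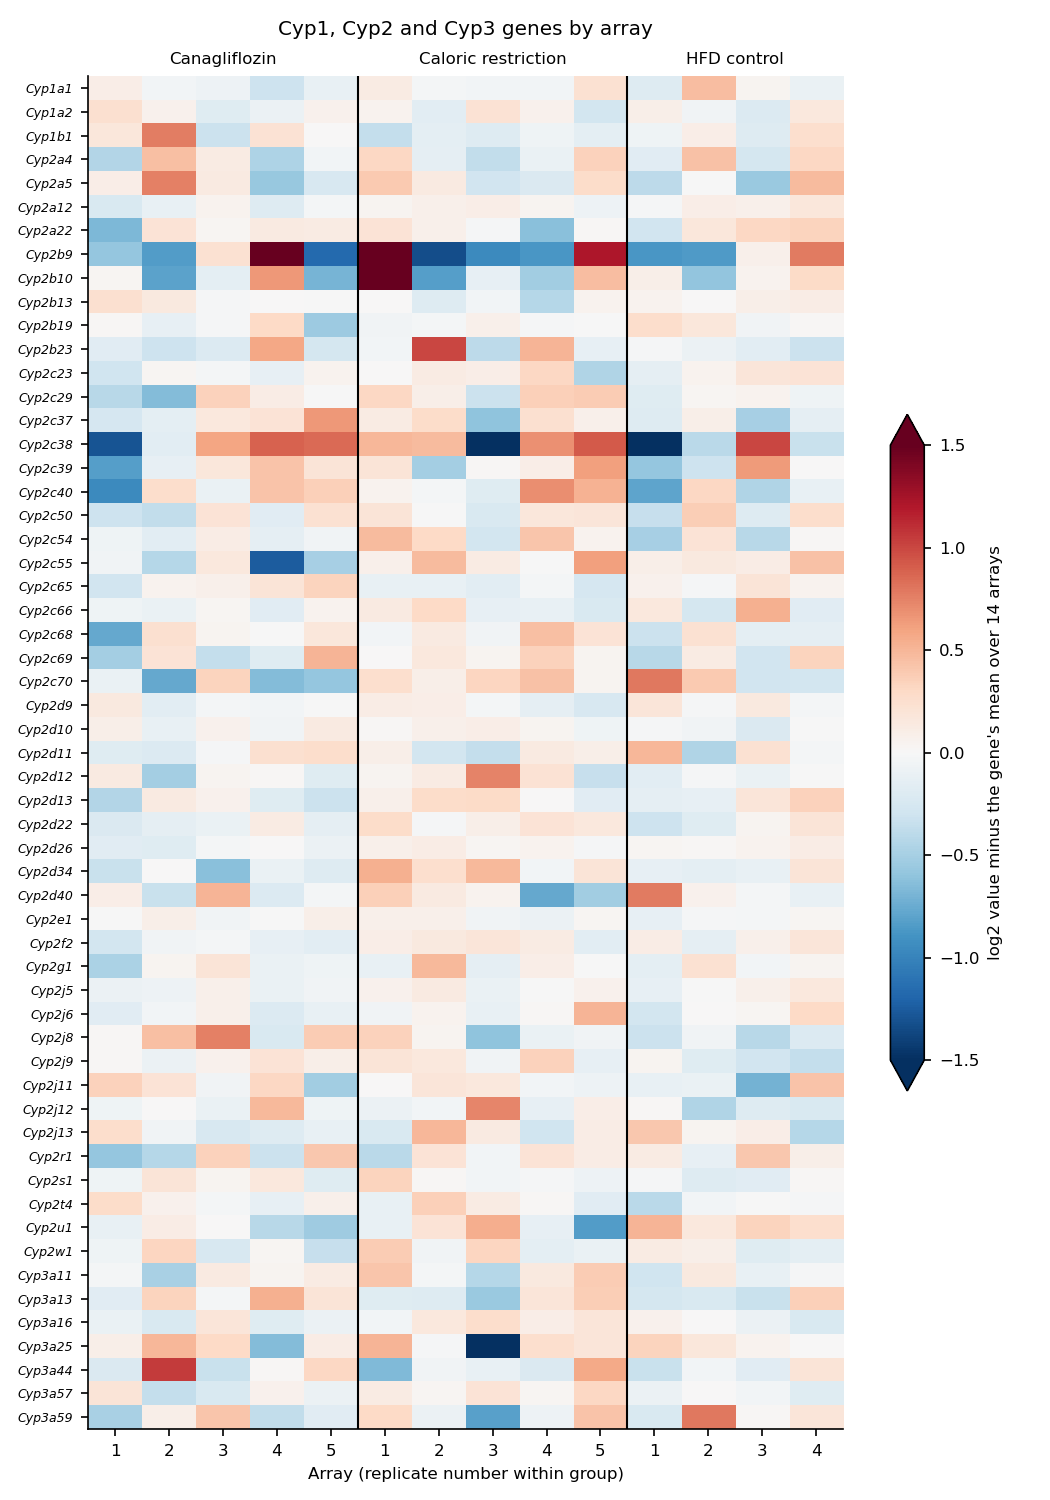
Each of the 57 genes (rows) in each of the 14 arrays (columns, by replicate number in canagliflozin, caloric restriction and HFD control livers), coloured by its log2 value minus the gene's mean over all arrays, with colours capped at 1.5. The Cyp2b9, Cyp2b10 and Cyp2c38 rows are the most uneven, and the uneven cells fall in single arrays of every group.

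In canagliflozin against HFD control livers, no P450 gene passed the test. The number past a limma adjusted p of 0.05 was 0 of 57, as it was over all genes (0%). Lower means were found for the bile acid enzyme Cyp2c70 (-0.51 ± 0.23, SE), for Cyp2c55 (-0.61 ± 0.21) and for the fatty acid hydroxylase Cyp2u1 (-0.50 ± 0.20), and higher means for the epoxygenase-family genes Cyp2j8 (0.52 ± 0.19) and Cyp2j9 (0.26 ± 0.11). At an unadjusted p under 0.05, 4 genes were lower (7.02% of the 57; 3.3% of all genes), these 3 and Cyp2a12, and 2 were higher (3.51%; 3.21% of all genes). A second, dimmer probe set for Cyp2c55 went the other way (0.30 ± 0.18). In 2 genes, Cyp2u1 and Cyp2d26, every canagliflozin array lay below every HFD control array (3.51%; 0.965% of all genes). None lay wholly above (0%; 0.987% of all genes). In all, 33 of 57 had a lower mean, with a median log2 fold change of -0.03, against 50.3% and -0.00085 over all genes.

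In caloric restriction against HFD control livers, 0 of 57 passed a limma adjusted p of 0.05 as well (0% of all genes). The smallest p-values among higher means were those of the epoxygenase Cyp2c54 (0.37 ± 0.16), of Cyp2d34 (0.33 ± 0.14) and of Cyp2j9 (0.30 ± 0.11). These 3 genes (5.26%; 2.06% of all genes) were the ones higher at an unadjusted p under 0.05, and 0 were lower (1.87% of all genes). The 2 groups did not overlap for Cyp3a57, which was higher (1.75%; 0.703% of all genes), and for Cyp2c65, which was lower (1.75%; 0.694% of all genes), and both had means well under the array median. In all, 37 of 57 had a higher mean, with a median of 0.06, against 50.5% and 0.0016 over all genes. The 7 Cyp2j genes all had higher means, from 0.0076 to 0.34, as did 11 of 14 Cyp2c genes.

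Between canagliflozin and caloric restriction livers, which were matched for body weight, the adjusted limma test again called 0 of 57, and 1 of 22180 genes (0.00451%). Most P450 means were lower under the drug, in 40 of 57 genes (70.2%), with a median of -0.11, against 51.0% and -0.0032 over all genes. Among P450 genes with a mean of at least 6, 19 of 27 were lower (70.4%), with a median of -0.13. Over all genes with such a mean, 49.6% were lower, with a median of 0.0013. Among the 30 P450 genes with a mean under 6, 21 were lower (70.0%), with a median of -0.09. The share was thus alike in bright and dim P450 genes, and dim values say little about level. At an unadjusted p under 0.05, 7 genes were lower: Cyp2c55, Cyp2c70, Cyp2d22, Cyp2d34, Cyp2f2, Cyp3a16 and Cyp3a57 (12.3% of the 57; 2.98% of all genes). One gene, Cyp1b1, was higher (1.75%; 3.07% of all genes). No P450 gene had canagliflozin arrays wholly above or below the caloric restriction arrays (0.437% of all genes above, 0.491% below). The canagliflozin arrays enter this comparison and the one with HFD control, so their low values count in both.

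By array, the median deviation of the 57 genes from their own 14-array means was -0.10, -0.05, 0.04, -0.04 and -0.03 in canagliflozin livers. It was 0.08, 0.08, -0.05, 0.02 and 0.06 in caloric restriction livers, and -0.12, 0.0034, -0.03 and 0.03 in HFD control livers. The highest and lowest values were thus those of 2 caloric restriction arrays and of 1 HFD control array. All 3 groups overlapped. Without canagliflozin replicate 1, the median log2 fold change between canagliflozin and caloric restriction was -0.05, and without HFD control replicate 4 the median between caloric restriction and HFD control was 0.12.

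**Figure D2:**
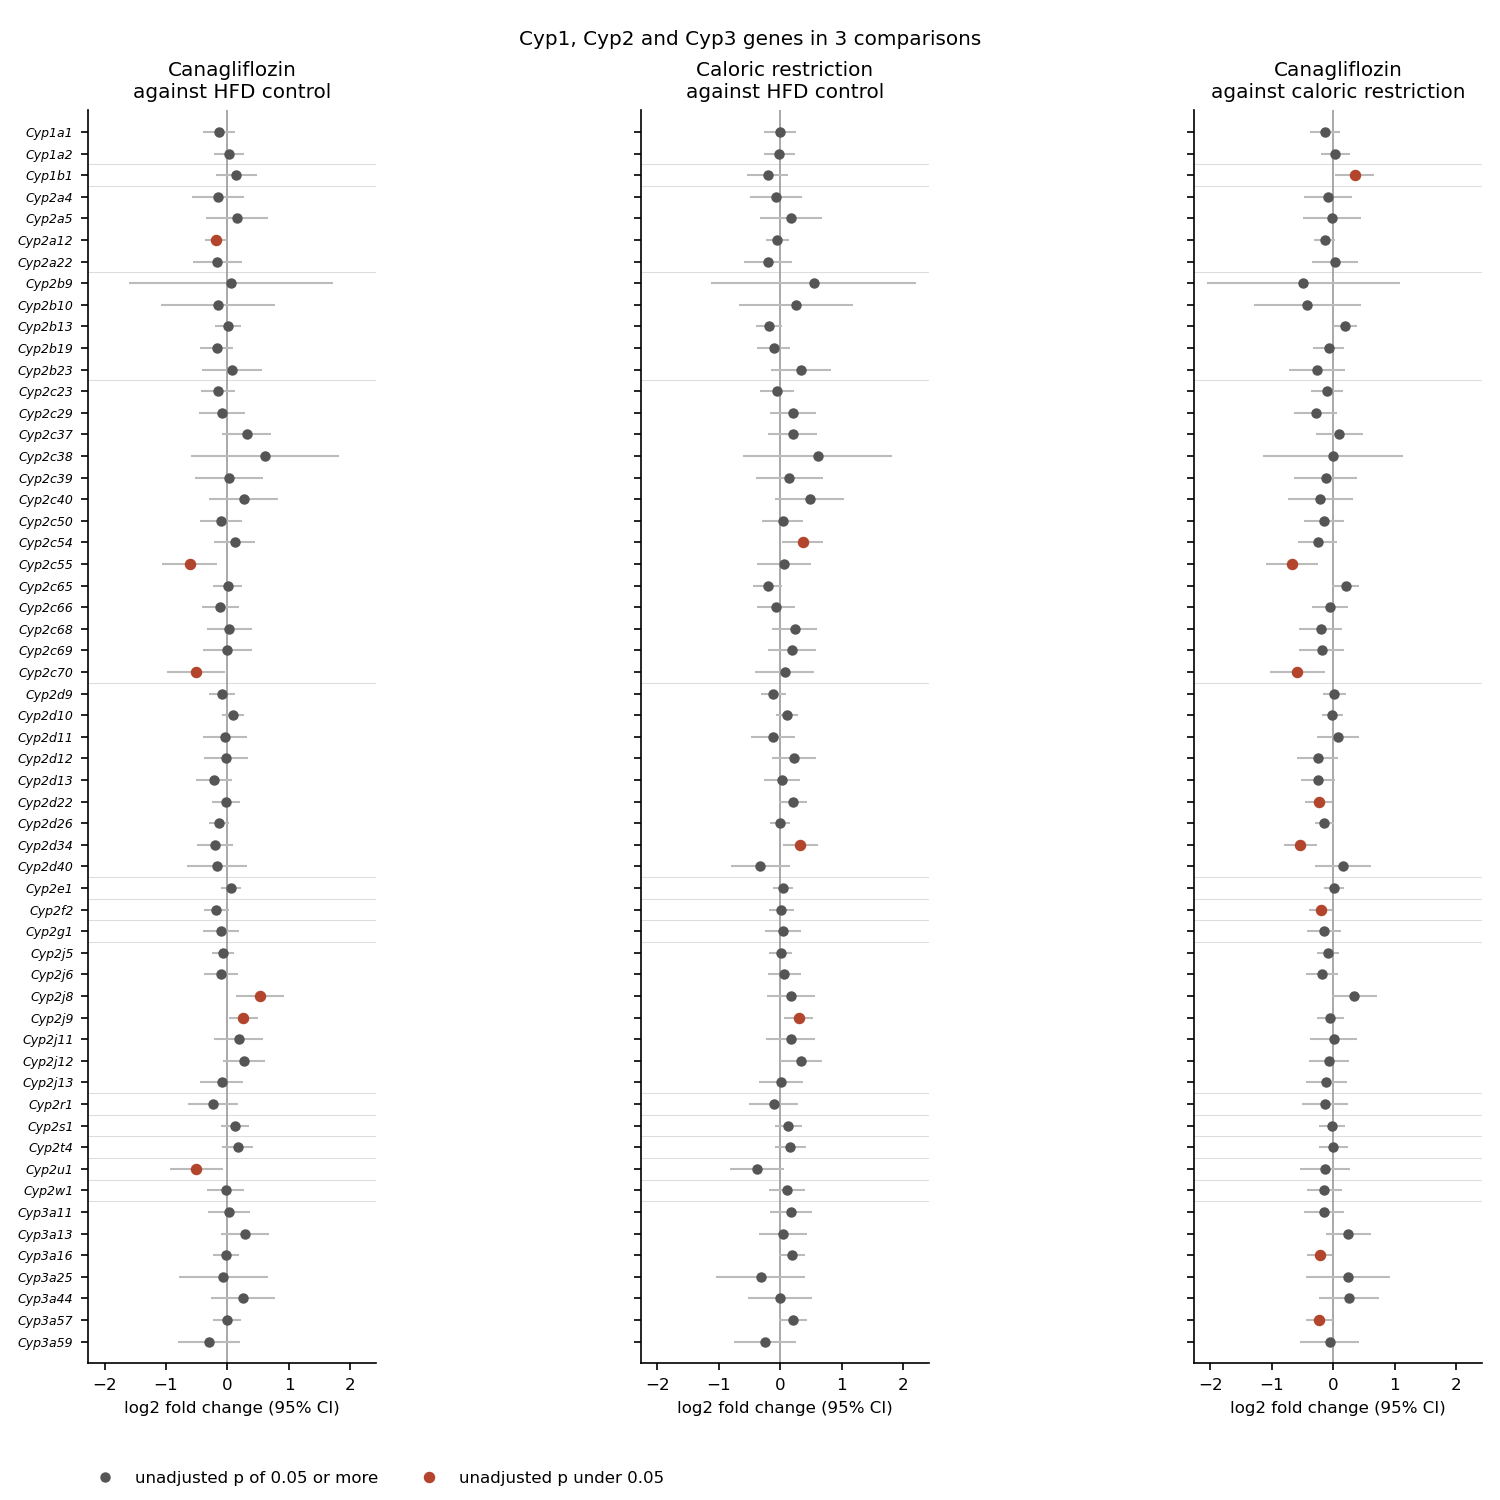
Log2 fold change (horizontal axis) of each of the 57 genes with its 95% confidence interval, in canagliflozin against HFD control, caloric restriction against HFD control, and canagliflozin against caloric restriction, with lines between subfamilies. Red points have an unadjusted limma p under 0.05, and 0 genes pass an adjusted p of 0.05 in any panel.

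The AhR-driven genes of family 1 had close means in the groups, apart from the dim Cyp1b1. Cyp1a2, a pericentral hepatocyte enzyme that clears caffeine, averaged 11.36 ± 0.16 in canagliflozin livers, 11.32 ± 0.20 in caloric restriction livers and 11.34 ± 0.16 in HFD control livers (SD). Its log2 fold change had a 95% interval of -0.22 to 0.27 for the drug against HFD control. Cyp1a1, the classical AhR target, stayed below the array median in all 14 arrays, between 2.77 and 3.54. Cyp1b1, which is expressed mainly outside the liver, was also dim. It read 3.12, 3.72, 2.64, 3.18 and 2.96 in canagliflozin livers, 2.60, 2.81, 2.76, 2.89 and 2.81 in caloric restriction livers, and 2.90, 3.06, 2.76 and 3.21 in HFD control livers. Of the canagliflozin arrays, 4 lay above all the caloric restriction arrays and 1 below most of them (0.35 ± 0.15, limma adjusted p = 0.807). Without canagliflozin replicate 2 that difference was 0.20.

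In the Cyp2a subfamily, Cyp2a12, a testosterone hydroxylase, was bright and steady. It read 12.18, 12.29, 12.47, 12.22 and 12.38 in canagliflozin livers, 12.45, 12.49, 12.51, 12.45 and 12.34 in caloric restriction livers, and 12.40, 12.51, 12.49 and 12.58 in HFD control livers. All canagliflozin arrays but replicate 3 lay below the HFD control arrays. The mean difference was -0.18 ± 0.09 (limma adjusted p = 0.758), and against caloric restriction it was -0.14 ± 0.08. Cyp2a5, the mouse coumarin hydroxylase, and the female-biased steroid hydroxylase Cyp2a4 differed by at most 0.18 between any groups, with intervals of up to 0.50 on each side. Both genes had their highest value in canagliflozin replicate 2, at 5.39 for Cyp2a5 and 8.53 for Cyp2a4.

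The Cyp2b genes, the best-known targets of CAR, varied more between arrays of a group than between groups. Cyp2b9, female-biased in mice, read 3.53, 3.27, 4.33, 5.68 and 2.94 in canagliflozin livers, 7.70, 2.77, 3.16, 3.23 and 5.32 in caloric restriction livers, and 3.23, 3.26, 4.18 and 4.88 in HFD control livers. Cyp2b10, the standard readout of CAR activation, read 4.24, 3.40, 4.05, 4.85 and 3.50 in canagliflozin livers, 6.33, 3.37, 4.08, 3.68 and 4.66 in caloric restriction livers, and 4.29, 3.61, 4.26 and 4.49 in HFD control livers. Both genes were highest in caloric restriction replicate 1, then in canagliflozin replicate 4, caloric restriction replicate 5 and HFD control replicate 4. Their printed promoters are alike in much of their sequence, and whether the probes of one gene also bind the other transcript was not tested. Cyp2b13, which lies between them on chromosome 7 and is female-biased too, stayed between 2.24 and 2.90 in all arrays.

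For Cyp2b9, 1 array set the sign of the group difference. The log2 fold change of caloric restriction against HFD control was 0.55 ± 0.79, and -0.27 without caloric restriction replicate 1. That of canagliflozin against caloric restriction was -0.49 ± 0.74, and 0.33 without that array. Cyp2b10 followed it, with -0.42 ± 0.41 for canagliflozin against caloric restriction and 0.06 without that array. The 95% interval of canagliflozin against HFD control ran from -1.60 to 1.72 for Cyp2b9 and from -1.08 to 0.77 for Cyp2b10, so these arrays could not show a difference of less than about that size.

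**Figure D3:**
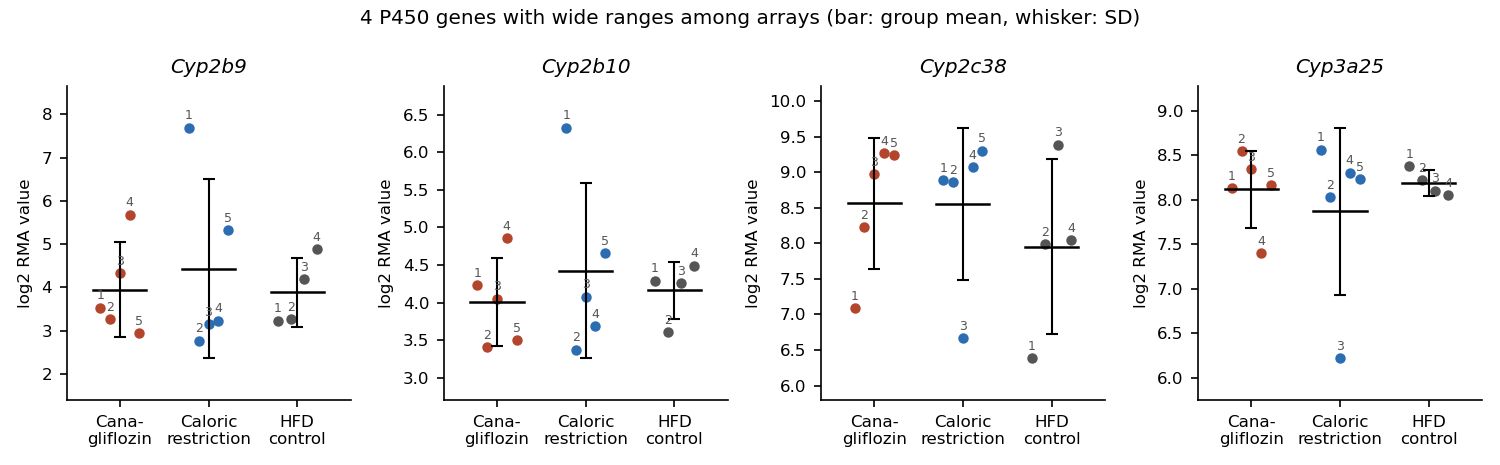
Log2 RMA value (vertical axis, a separate scale for each gene) of Cyp2b9, Cyp2b10, Cyp2c38 and Cyp3a25 in each array, numbered by replicate, with the group mean and SD. Caloric restriction replicate 1 is the highest point for both Cyp2b genes, at 7.70 and 6.33, and caloric restriction replicate 3 is the lowest for Cyp3a25, at 6.22.

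The Cyp2c subfamily held the lowest log2 fold changes under the drug. Cyp2c70 makes the muricholic acids, the bile acids typical of mice. It read 11.50, 10.83, 11.93, 10.95 and 11.01 in canagliflozin livers, 11.85, 11.69, 11.92, 12.03 and 11.64 in caloric restriction livers, and 12.39, 11.99, 11.32 and 11.32 in HFD control livers. Canagliflozin livers were thus lower than every caloric restriction liver except in replicate 3, and lower than every HFD control liver in 3 of 5 arrays. Its log2 fold change was -0.58 ± 0.21 against caloric restriction (limma adjusted p = 0.767) and -0.51 ± 0.23 against HFD control (adjusted p = 0.751). Caloric restriction and HFD control livers differed by 0.07 ± 0.23. Leaving out single arrays moved the drug difference from HFD control between -0.68 (without canagliflozin replicate 3) and -0.30 (without HFD control replicate 1).

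Cyp2c55, an arachidonate hydroxylase inducible through CAR and PXR, was low in the same group. It read 5.78, 5.40, 5.99, 4.58 and 5.33 in canagliflozin livers, 5.91, 6.30, 5.96, 5.82 and 6.45 in caloric restriction livers, and 5.93, 5.97, 5.94 and 6.27 in HFD control livers. In 4 of 5 canagliflozin arrays it was below all arrays of the other groups, and replicate 4 was the lowest. Its level was 1.59-fold lower than in caloric restriction livers (-0.67 ± 0.20, limma adjusted p = 0.683) and 1.53-fold lower than in HFD control livers (-0.61 ± 0.21, adjusted p = 0.634). Without canagliflozin replicate 4 these were -0.46 and -0.40. A second probe set for Cyp2c55, with a mean of 3.37, went the other way, with 0.41 ± 0.17 against caloric restriction and 0.30 ± 0.18 against HFD control. Averaged over both probe sets the differences were -0.13 and -0.16. The probe sets of this gene therefore disagree, and which follows its transcript was not tested.

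The other Cyp2c genes did not all share this pattern in the comparison with HFD control. Of all 14, with Cyp2c55 and Cyp2c70 among the lower ones, 7 means were lower and 7 higher. Cyp2c54, an epoxygenase, read 10.32, 10.22, 10.50, 10.25 and 10.33 in canagliflozin livers, 10.86, 10.69, 10.10, 10.80 and 10.44 in caloric restriction livers, and 9.89, 10.59, 9.97 and 10.40 in HFD control livers. It was highest in 3 of the caloric restriction arrays (0.37 ± 0.16 against HFD control, limma adjusted p = 0.999). Its neighbour Cyp2c37, also an arachidonate enzyme, had higher means in both arms, by 0.31 ± 0.19 for the drug and 0.21 ± 0.19 for restriction against HFD control. Cyp2c29 and Cyp2c50, epoxygenases too, had means lower by 0.29 ± 0.17 and 0.15 ± 0.15 in canagliflozin than in caloric restriction livers. Over the subfamily, 11 of 14 means were lower in that comparison, with a median of -0.17.

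Cyp2c38 spread over a range of 3.01 across the arrays. It read 7.09, 8.23, 8.97, 9.27 and 9.24 in canagliflozin livers, 8.88, 8.86, 6.67, 9.07 and 9.30 in caloric restriction livers, and 6.38, 7.98, 9.39 and 8.05 in HFD control livers. Each group held 1 array well below its others, and each group also had arrays above 9. Its neighbour Cyp2c39, a retinoic acid hydroxylase, was low in 2 of the same arrays, at 3.94 in canagliflozin replicate 1 and 4.19 in HFD control replicate 1. The log2 fold change of Cyp2c38 was 0.61 ± 0.57 for both arms against HFD control, and 0.09 for the drug and 0.08 for restriction without HFD control replicate 1. Cyp2c65, dim throughout, was the 1 gene wholly lower in caloric restriction than in HFD control livers, at 1.95 to 2.17 against 2.19 to 2.40.

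Among the Cyp2d genes, relatives of human CYP2D6, 8 of 9 means were lower in canagliflozin than in HFD control livers, by small amounts, with a median of -0.09. Cyp2d26 was the steadiest. It read 11.65, 11.64, 11.80, 11.83 and 11.73 in canagliflozin livers, 11.90, 11.93, 11.85, 11.88 and 11.80 in caloric restriction livers, and 11.85, 11.84, 11.87 and 11.93 in HFD control livers. Every canagliflozin array lay below every HFD control array, though the mean difference was only -0.14 ± 0.08, a 1.10-fold lower level (limma adjusted p = 0.797). Against caloric restriction it was -0.14 ± 0.07, and restriction itself differed from HFD control by -0.00029 ± 0.08. Cyp2d9, a male-specific testosterone hydroxylase, differed by no more than 0.11 in any comparison.

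Cyp2d34 had the smallest unadjusted p of the 57 genes, between canagliflozin and caloric restriction livers, yet it was dim. It read 3.54, 3.88, 3.25, 3.78 and 3.68 in canagliflozin livers, 4.40, 4.12, 4.36, 3.83 and 4.07 in caloric restriction livers, and 3.75, 3.73, 3.76 and 4.06 in HFD control livers. Only canagliflozin replicate 2 reached the range of the caloric restriction arrays. The difference was -0.53 ± 0.13 (limma adjusted p = 0.614), made up of 0.33 ± 0.14 for restriction and -0.20 ± 0.14 for the drug, each against HFD control. Cyp2d22, at a mean of 10.17, had a lower mean in canagliflozin than in caloric restriction livers as well (-0.23 ± 0.10, limma adjusted p = 0.81), with 4 of 5 canagliflozin arrays below all of the restricted ones.

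Cyp2e1, the pericentral enzyme that oxidises ethanol and acetaminophen, and which ketones are known to stabilise, had narrow limits in all groups. It averaged 13.50 ± 0.06 in canagliflozin livers, 13.48 ± 0.07 in caloric restriction livers and 13.44 ± 0.06 in HFD control livers (SD). The 95% interval of the drug's log2 fold change against HFD control was -0.11 to 0.23, and it was -0.14 to 0.17 against caloric restriction.

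Cyp2f2, which oxidises naphthalene and is expressed in lung club cells and periportal hepatocytes, read 12.37, 12.59, 12.61, 12.52 and 12.48 in canagliflozin livers. It read 12.74, 12.79, 12.82, 12.76 and 12.48 in caloric restriction livers and 12.75, 12.51, 12.72 and 12.82 in HFD control livers. Apart from 1 low array in each of the other groups, the canagliflozin arrays were the lower ones. The differences were -0.20 ± 0.09 against caloric restriction (limma adjusted p = 0.811) and -0.19 ± 0.10 against HFD control. Its second probe set gave -0.18 ± 0.12 and -0.12 ± 0.13.

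Cyp2u1, a hydroxylase of long-chain fatty acids, was lower in canagliflozin livers than in all HFD control livers. It read 8.10, 8.32, 8.21, 7.80 and 7.67 in canagliflozin livers, 8.09, 8.41, 8.76, 8.09 and 7.37 in caloric restriction livers, and 8.72, 8.37, 8.55 and 8.46 in HFD control livers. The caloric restriction arrays ranged across both other groups. Differences from HFD control were -0.50 ± 0.20 for the drug (limma adjusted p = 0.723) and -0.38 ± 0.20 for restriction (adjusted p = 0.999), and the 2 arms differed by -0.13 ± 0.19. Cyp2r1, which hydroxylates vitamin D, had means of 6.69 ± 0.46, 6.82 ± 0.25 and 6.93 ± 0.22 in canagliflozin, caloric restriction and HFD control livers (SD).

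The Cyp2j genes are relatives of human CYP2J2, an arachidonate epoxygenase, and 7 of them lie side by side on chromosome 4. Cyp2j5, the main epoxygenase of this subfamily in liver and kidney, differed by no more than 0.08 in any comparison. Cyp2j9 read 6.18, 6.07, 6.23, 6.36 and 6.25 in canagliflozin livers, 6.35, 6.31, 6.10, 6.50 and 6.03 in caloric restriction livers, and 6.20, 5.98, 5.87 and 5.80 in HFD control livers. It was the 1 gene with a higher mean in both arms at an unadjusted p under 0.05, by 0.26 ± 0.11 for the drug (limma adjusted p = 0.743) and 0.30 ± 0.11 for restriction (adjusted p = 0.999). Both comparisons use the same HFD control arrays, of which replicate 1 overlaps the treated arrays.

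Cyp2j8 was dim, at 3.36, 3.80, 4.10, 3.11 and 3.73 in canagliflozin livers, 3.70, 3.38, 2.74, 3.25 and 3.30 in caloric restriction livers, and 3.02, 3.30, 2.93 and 3.14 in HFD control livers. In 4 of 5 canagliflozin arrays it exceeded all HFD control arrays (0.52 ± 0.19, limma adjusted p = 0.637), while the fifth lay within them. Cyp2j12, dimmer than the array median as well in most arrays, had means higher by 0.27 ± 0.16 and 0.34 ± 0.16 in the drug and restriction arms than in HFD control livers. In each arm 1 array stood well above the others, at 4.02 in canagliflozin replicate 4 and 4.26 in caloric restriction replicate 3.

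**Figure D4:**
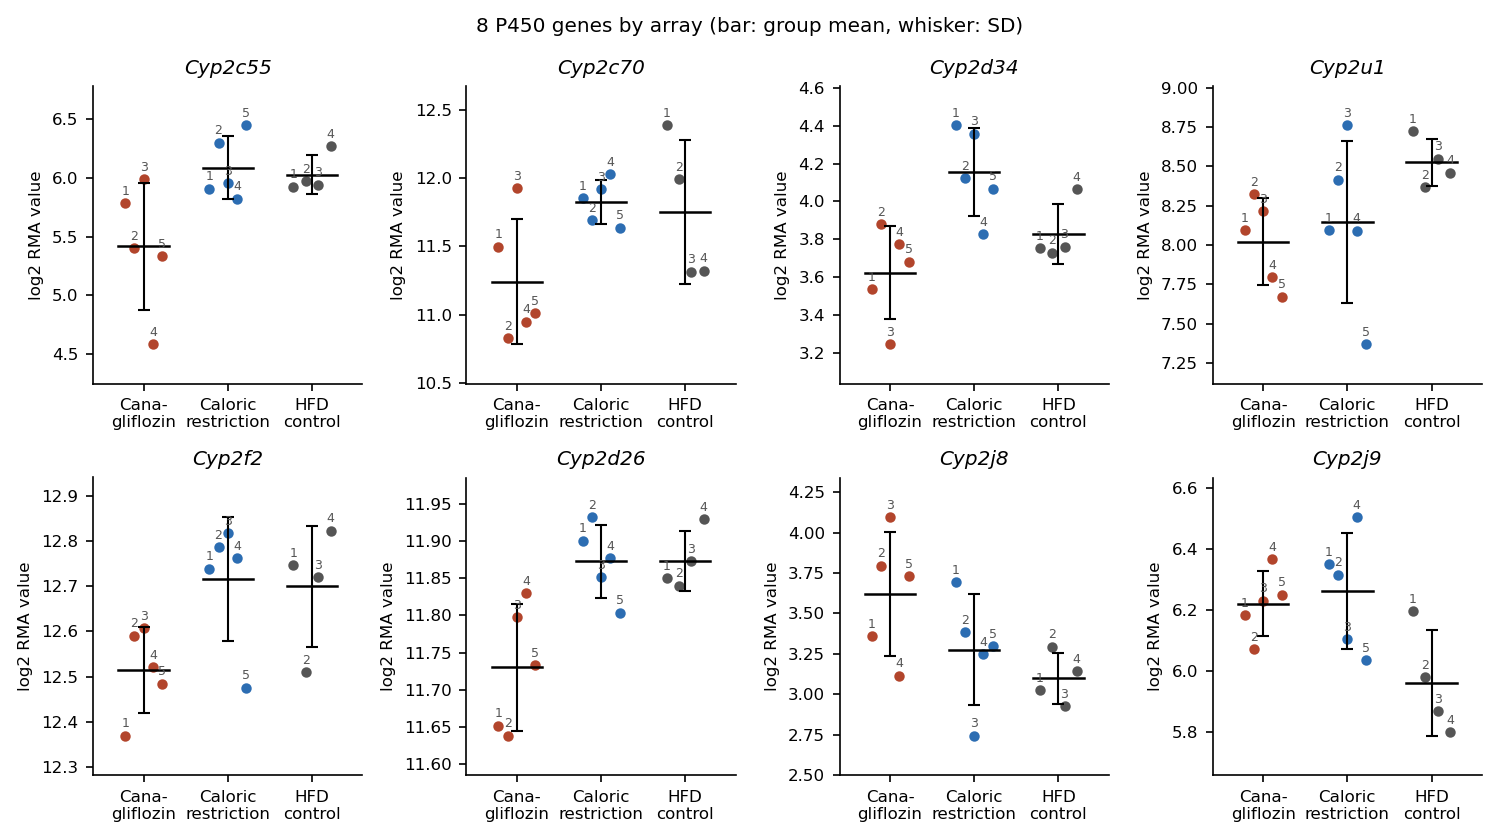
Log2 RMA value (vertical axis, a separate scale for each gene) of Cyp2c55, Cyp2c70, Cyp2d34, Cyp2u1, Cyp2f2, Cyp2d26, Cyp2j8 and Cyp2j9 in each array, numbered by replicate, with the group mean and SD. Groups overlap for each gene except canagliflozin and HFD control livers for Cyp2u1 and Cyp2d26, and canagliflozin replicate 3 is the highest of its group for Cyp2c55, Cyp2c70 and Cyp2f2.

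The Cyp3a genes, whose products metabolise a wide range of drugs and bile acids, differed little. Cyp3a11, the main PXR target in mouse liver, averaged 8.96 ± 0.25 in canagliflozin livers, 9.10 ± 0.34 in caloric restriction livers and 8.93 ± 0.18 in HFD control livers (SD). Its log2 fold changes were 0.02 ± 0.16 for the drug and 0.17 ± 0.16 for restriction against HFD control, with an interval of -0.32 to 0.37 for the drug. Cyp3a13 had its highest mean in canagliflozin livers, by 0.29 ± 0.19 over HFD control and 0.25 ± 0.17 over caloric restriction livers.

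Cyp3a25 read 8.14, 8.55, 8.35, 7.40 and 8.16 in canagliflozin livers, 8.56, 8.03, 6.22, 8.31 and 8.23 in caloric restriction livers, and 8.38, 8.22, 8.10 and 8.05 in HFD control livers. Apart from canagliflozin replicate 4 and caloric restriction replicate 3 the groups were alike. The log2 fold change of restriction was -0.32 ± 0.34, and 0.09 without that array. The female-biased Cyp3a44 and the fetal gene Cyp3a16 were at or under the array median in most arrays, as was Cyp3a57. Cyp3a16 and Cyp3a57 each had a mean lower by 0.22 ± 0.10 in canagliflozin than in caloric restriction livers, at values between 2.00 and 2.69 in those groups that were well under the array median. The female-biased Cyp3a41a had no probe set of its own in the annotation and was not analysed.

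The genes that drive, serve and accompany these P450 enzymes were read from lists chosen by function. None of their members passed an adjusted p of 0.05 in any comparison, with 0% of all genes in the 2 comparisons with HFD control and 0.00451% between canagliflozin and caloric restriction. Of 20 xenobiotic receptors and hepatocyte transcription factors, 14 had lower means in canagliflozin than in HFD control livers and 16 lower than in caloric restriction livers, with medians of -0.07 and -0.10. At an unadjusted p under 0.05, 4 of the 20 were lower in canagliflozin than in HFD control livers (3.3% of all genes) and 1 was higher (3.21%). PXR (Nr1i2) differed by 0.13 ± 0.15, CAR (Nr1i3) by -0.05 ± 0.13, AhR (Ahr) by 0.27 ± 0.22 and Hnf4a by 0.05 ± 0.11 between canagliflozin and HFD control livers. The smallest p-values against HFD control were those of the liver transcription factors Foxa1, Foxa2 and Cebpa. Whether they act on the P450 genes in these livers was not tested.

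Foxa1 read 7.33, 7.01, 7.14, 7.26 and 7.08 in canagliflozin livers, 7.48, 7.25, 7.82, 7.70 and 7.47 in caloric restriction livers, and 7.49, 7.58, 7.29 and 7.80 in HFD control livers. The canagliflozin arrays were the lowest but for an overlap with 1 array of each other group. The log2 fold change was -0.38 ± 0.12 against both caloric restriction (limma adjusted p = 0.683) and HFD control (adjusted p = 0.607). Foxa2 had -0.34 ± 0.13 against each, and Cebpa -0.20 ± 0.14 and -0.38 ± 0.14 in the same order.

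Of 17 electron donor and heme supply genes, 11 had lower means in canagliflozin than in HFD control livers and 12 had higher means in caloric restriction livers. Alas1, the first enzyme of heme synthesis, differed by -0.06 ± 0.22 and -0.08 ± 0.22. Hmox1, the heme oxygenase that breaks heme down, was the gene of this list with the largest difference. It read 6.17, 6.69, 5.74, 6.72 and 5.95 in canagliflozin livers, 6.20, 5.66, 5.51, 6.17 and 5.60 in caloric restriction livers, and 5.90, 5.62, 5.49 and 5.56 in HFD control livers. Its values were higher than all HFD control values in 4 of 5 canagliflozin arrays (0.61 ± 0.20, limma adjusted p = 0.596).

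Of 21 other targets of AhR, CAR and PXR, 18 had higher means in caloric restriction than in HFD control livers, with a median of 0.10, and 17 had lower means in canagliflozin than in caloric restriction livers, with a median of -0.13. Ces2a, a carboxylesterase, read 9.52, 9.61, 9.58, 9.16 and 9.39 in canagliflozin livers, 9.70, 9.86, 9.74, 9.81 and 9.75 in caloric restriction livers, and 9.50, 9.67, 9.28 and 9.80 in HFD control livers. Every canagliflozin array was below every caloric restriction array (-0.32 ± 0.11, limma adjusted p = 0.709), and HFD control arrays ranged over both. Of all genes, 0.491% lay wholly lower in this way, and Ces2a was the gene of its list with the smallest p in this comparison. Slco1a4, an organic anion importer, had higher means than HFD control livers by 1.02 ± 0.37 in canagliflozin livers and by 0.65 ± 0.37 in caloric restriction livers (limma adjusted p = 0.663 and 0.999).

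Of 23 oxidising and hydrolysing enzymes outside the P450 families, such as carboxylesterases and flavin monooxygenases, 21 had lower means in canagliflozin than in caloric restriction livers, with a median of -0.11, and 18 lower than in HFD control livers. Ces1g, a carboxylesterase that hydrolyses lipids and drugs, read 8.55, 8.74, 9.44, 8.85 and 9.14 in canagliflozin livers, 10.01, 9.61, 9.22, 9.96 and 9.80 in caloric restriction livers, and 8.67, 9.28, 9.78 and 9.80 in HFD control livers. All canagliflozin arrays but replicate 3 were below all the restricted ones. The difference was -0.78 ± 0.21 against caloric restriction (limma adjusted p = 0.662) and -0.44 ± 0.22 against HFD control.

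Lists of sex-biased and zonal liver genes were read as well. Of 17 male-biased genes outside families 1 to 3, 16 had lower means in caloric restriction than in HFD control livers, with a median of -0.23. The exception, Elovl3, had the smallest limma p of the list. It read 9.78, 10.56, 10.40, 11.78 and 10.66 in caloric restriction livers, and 9.32, 9.46, 10.51 and 10.02 in HFD control livers. Of the 17, 12 had lower means in canagliflozin than in HFD control livers, with a median of -0.11. Elovl3 again had the smallest p and was higher, at 10.75, 11.03, 10.87, 11.45 and 10.88 in canagliflozin livers. All of these lay above every HFD control array, as in 0.987% of all genes. At an unadjusted p under 0.05, 1 of the 17 was higher and 1 lower (3.21% and 3.3% of all genes). Against caloric restriction livers, 14 of the 17 male-biased genes had higher means in canagliflozin livers. Of 15 female-biased genes, 12 had higher means in caloric restriction than in HFD control livers. Of 19 pericentral genes, 12 had lower means in canagliflozin than in HFD control livers, and of 17 periportal genes 10 had higher means, the gluconeogenic enzyme G6pc (0.56 ± 0.15, limma adjusted p = 0.559) among them. Over all genes, 50.3% were lower and 49.7% higher in that comparison. At an unadjusted p under 0.05, 6 of the 17 periportal genes were higher in canagliflozin than in HFD control livers (3.21% of all genes) and 0 were lower, and 4 were higher than in caloric restriction livers (3.07% of all genes). Of the 19 pericentral genes, 1, Oat, was higher than in HFD control livers at that p and 0 were lower (3.3% of all genes). Against caloric restriction livers, 2 pericentral genes were higher and 2 lower (2.98% of all genes). The steroid hydroxylases Cyp2d9, male-specific, and Cyp2a4, female-biased, differed by 0.11 and 0.15 at most. Other female-biased P450 genes, all with means under the highest array median, differed more and in both directions. In caloric restriction against HFD control, Cyp2b9 had 0.55, Cyp2b13 -0.18 and Cyp3a44 -0.01. In canagliflozin against HFD control they had 0.06, 0.01 and 0.26, and against caloric restriction -0.49, 0.19 and 0.26.

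**Figure D5:**
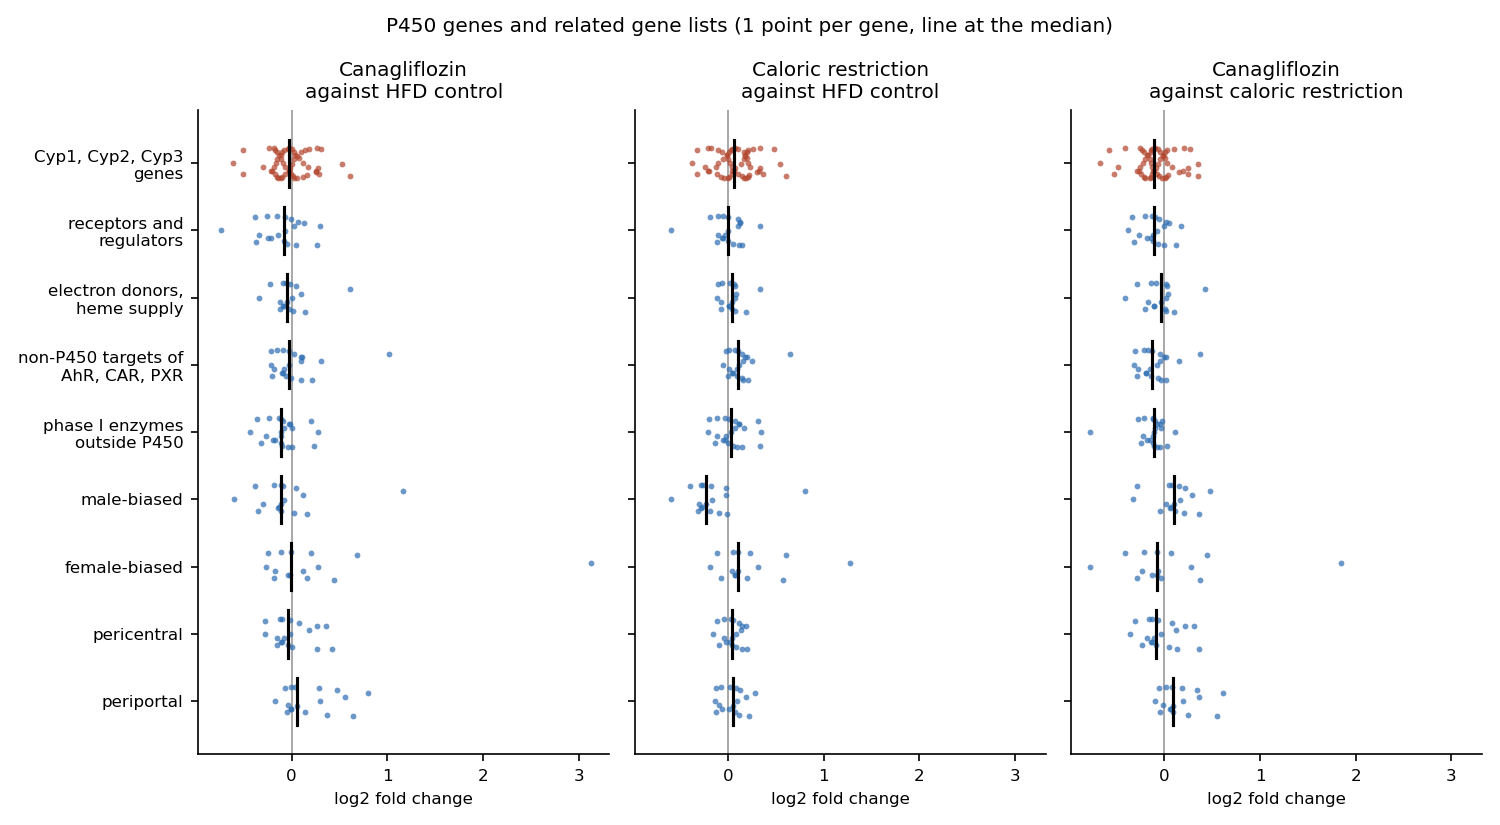
Log2 fold change (horizontal axis) of each P450 gene of families 1 to 3 (red) and of each gene of the related lists (blue), with a line at each list's median, in the 3 comparisons. The P450 median lies at -0.03, 0.06 and -0.11 in the panels for canagliflozin against HFD control, caloric restriction against HFD control and canagliflozin against caloric restriction.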

How the data were processed

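Liver total RNA (250 ng per array) was labelled with an Affymetrix whole-transcript protocol, per the labels' protocols. The values deposited by the authors are on a log2 scale, 1 per probe set and array. Per the submitters' processing notes they come from RMA and Affymetrix Expression Console. Neither versions nor the genome build are stated in the sources used here. The platform annotation gives 23521 of 41345 probe sets 1 symbol, and only these were used. It gives 1814 more than 1 and lists no symbol for 16010. Of the resulting 22180 genes, 1082 had several probe sets. All genes were tested without a filter. Group means of the 14 arrays were fitted with limma 3.58.1 (lmFit, eBayes) in R 4.3.3, with Benjamini-Hochberg adjustment over all genes in each comparison and a threshold of 0.05. The procedure was tested on simulated data. Errors of fold changes are standard errors of that fit, those of means are standard deviations, and array number limits the precision.

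The P450 genes, the gene lists, the motifs and the genes named were chosen with earlier results of these data known. Genes were named where they were among the 6 with the smallest p in either direction in a comparison, among the 3 with the widest range over all arrays or within a group, or in a set of well-studied P450 genes. From each other list, up to 3 genes with the smallest p were open to naming; the receptors, Hnf4a and Alas1 were named for their role after their values were seen. All 57 symbols matched RefSeq. Promoter windows were aligned with Biopython 1.88. Alternatives are under the closing section. Symbols Cyp2ab1, Cyp2c53-ps and Cyp2d37-ps fell outside the naming rule.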

Additional observations from a re-analysis of the deposited data

Results flagged for a closer look

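In groups of 4 or 5 arrays, an end value was singled out where its gap to the nearest array exceeded Dixon's 95% critical share of the group's range. Of 114 groups tested (38 named genes in 3 groups), 12 held such a value. Chance gives about 1 in 20, but some of these genes were named for their wide ranges, so the count cannot be read against that rate. Caloric restriction replicate 3 held 4 of them. It was low for Cyp2c37 (9.71, with the other arrays of its group at 10.39 to 10.59), for Cyp2c38 (6.67, others 8.86 to 9.30) and for Cyp3a25 (6.22, others 8.03 to 8.56). It was high for Cyp2j12 (4.26, others 3.41 to 3.63). Caloric restriction replicate 5 was low for Cyp2f2 (12.48, others 12.74 to 12.82).

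In canagliflozin livers, replicate 4 was high for Cyp2j12 (4.02, others 3.43 to 3.54), replicate 3 was high for Cyp2j5 (11.89, others 11.71 to 11.76), and replicate 2 was low for Cyp3a11 (8.52, others 8.97 to 9.14). In HFD control livers, replicate 4 was high for Cyp2c55 (6.27, others 5.93 to 5.97), Cyp2d34 (4.06, others 3.73 to 3.76) and Cyp3a13 (9.86, others 9.17 to 9.28), and replicate 1 was low for Cyp2t4 (3.28, others 3.65 to 3.67).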

How the results depend on the processing

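No P450 gene passed an adjusted p of 0.05 under any alternative: fits of only the compared groups, mean filters at 5 and 6, median centring, cyclic loess, a robust variance trend, weighted arrays, the replicate block, other probe set rules, the array order as a covariate, an adjusted p of 0.1, and leaving out each array. The lowest adjusted p of a named P450 gene was 0.214. Of 2111 alternative values of named genes, 2 moved by more than 1 within-group SD, both for Cyp2c55 with the mean of its probe sets (-0.16 and -0.13 against HFD control and caloric restriction). A shift within that SD can still reverse a small difference, so this count does not show that directions were stable. In canagliflozin against HFD control, the sign changed in 7 of 17 alternatives for Cyp2c65, 6 of 17 for Cyp2c39 and 0 of 19 for Cyp2c70. Without caloric restriction replicate 1, Cyp2b9 gave -0.27 for caloric restriction against HFD control and 0.33 for canagliflozin against caloric restriction. At an unadjusted p under 0.05, 6, 3 and 8 P450 genes and 1444, 872 and 1341 of all genes passed in canagliflozin against HFD control, caloric restriction against HFD control and canagliflozin against caloric restriction. In canagliflozin against HFD control, 1 of all genes passed with a mean of at least 5, with a mean of at least 6 and with array order as a covariate, and the P450 median was -0.088 at a mean of at least 5 and -0.083 at a mean of at least 6. In caloric restriction against HFD control, 1 passed with array order. In canagliflozin against caloric restriction, 0 passed with only those groups or a mean of at least 6, and 2 with the replicate block. Same-numbered arrays deviated together at r = -0.09 to 0.20, and in several cases the same-numbered array was the closest one of the other group. The numbers were not taken to pair arrays, but a pairing is not excluded. The block gave 0 P450 calls, as the main fit did, so the calls cannot decide this. The first principal component of the arrays tended to rise in the deposited order. It was -12.9, -21.1 and -8.8 in the first 3 arrays and 20.2, 4.5 and 10.1 in the last 3. With array order as a covariate, the P450 medians were -0.03, 0.04 and -0.08 in the 3 comparisons. Leaving out single arrays gave 0 P450 calls in each comparison. All-gene counts were 0 to 12, 0 to 0 and 0 to 16, and P450 medians -0.060 to -0.016, 0.025 to 0.121 and -0.122 to -0.050, in the same order. The cause of these shifts was not tested. Means of 23 of the 57 lay under 4.13, the highest array median.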

Other observations

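By subfamily, in canagliflozin against caloric restriction livers, 4 of 5 Cyp2b genes (median log2 fold change -0.26), 6 of 9 Cyp2d genes (-0.14), 5 of 7 Cyp2j genes (-0.06) and 4 of 7 Cyp3a genes (-0.06) had lower means. In canagliflozin against HFD control livers, 4 of 7 Cyp2j genes had higher means, with a median of 0.18. The 5 lower Cyp2j differences against caloric restriction and the 4 higher ones against HFD control use the same 5 canagliflozin arrays. The 27 brighter P450 genes, with a mean of at least 6, had 17 lower means in canagliflozin and 10 lower means in caloric restriction livers, each against HFD control. These are 63.0% and 37.0%, against 53.5% and 54.8% over all genes with such a mean. Of the 30 P450 genes with a mean under 6, 16 (53.3%) and 10 (33.3%) had lower means, in the same order.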
